A study of Mus musculus with 89 samples.

Results

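Villus tip clumps are small groups of attached cells from the mouse jejunum in which enterocytes of the upper end of the villus take part. They were chosen by measured values. A clump of mice 1 to 5 was kept when it held over 500 UMIs (unique molecular identifiers, 1 per captured mRNA molecule), no fewer than 200 genes and a mitochondrial share of 30% or less. The share A of the apolipoprotein genes Apoa1, Apoa4 and Apob had to reach 1% of its UMIs, which marks villus enterocytes. A clump was called tip when Ada made up at least 0.2% of its UMIs and mid villus when Ada made up less than 0.05%. Of 17162 clump wells in all, 15626 came from mice 1 to 5, 6004 passed the limits on quality and 2067 also passed the limit on A. These held 419 tip clumps, 1399 mid villus clumps and 249 clumps with Ada between the limits. In mice 1 to 5 there were 43, 164, 181, 8 and 23 tip clumps and 299, 375, 480, 137 and 108 mid villus clumps.

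The clumps were obtained from untreated C57BL/6 male mice on regular chow, labelled 3 months old (3 plates of single cells, used below, are labelled 4 months), by a mild EDTA dissociation that leaves neighbouring cells attached. They were sorted by DNA content into pairs (4n, all 5 mice) and larger clumps (above 4n, mice 1, 4 and 5), and sequenced by MARS-seq, a plate-based method that reads the 3′ end of each mRNA. All mice shared 1 genotype and diet, and each mouse gave both zones, though the main fit has no term for the mouse. A clump can hold cells of more than 1 type, so its profile is a mixture, and fewer cells of a type and less RNA per cell cannot be told apart. The UMIs of all tip clumps, and of all mid villus clumps, were summed per mouse. The 4 genes that chose the clumps were left out of the sums. The tip sums held 61497, 198552, 410339, 26452 and 29931 UMIs in mice 1 to 5 and the mid villus sums 730144, 715098, 2093925, 512785 and 141919. The shallow tip sums of mice 4 and 5 set the precision: 1 UMI there equals 37.8 and 33.4 CPM (UMIs per 1000000 UMIs of the sum), and a count of 0 allows up to 113 and 100.2 CPM, for counting error only.

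Enterocytes are born in the crypt, move up the villus and are shed at its tip, and they change their program on the way. Enterocytes of the middle of the villus are known for carbohydrate and amino acid absorption. Those at the tip are known for purine metabolism, apolipoproteins and cell adhesion. Adenosine deaminase, encoded by Ada, turns adenosine into inosine, and Nt5e encodes the ecto-enzyme CD73 that makes adenosine from AMP outside the cell.

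The genes of the rule are given as a description only. Ada made up 0.717% ± 0.162 (SD, n = 5 mice) of the UMIs of tip clumps, 0.114% of those between the limits and 0.00226% of mid villus UMIs. Of the 1399 mid villus clumps, 1281 held no Ada UMI and 96 held 1, whereas every tip clump held at least 2, with a median of 8. Apoa4 took 2.96% of tip UMIs and 0.563% of mid villus UMIs. Apoa1 took 2.90% and 1.63%, and Apob 0.158% and 0.0681%.

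The limit on Ada cuts through a continuous range. The 32 clumps just inside the tip limit (Ada from 0.2% to 0.25%) held Clca4a at 2374 CPM and Slc28a2 at 594 CPM. The 66 clumps just outside it (0.15% to 0.2%) held these genes at 2272 and 524 CPM. The 41 clumps just inside the mid villus limit (0.03% to 0.05%) had 755 and 71.5 CPM, against 1120 and 189 CPM in the 52 clumps just outside it (0.05% to 0.07%). Not every gene followed this order. Nt5e had 0 UMIs just inside the tip limit and 7 (53.9 CPM) just outside it, and Apol9a had 184 CPM inside and 300.4 CPM outside. Few clumps sat at the limit on A, with 4 tip clumps just inside it and 2 clumps of tip-like Ada just outside it.

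Tip clumps were a minority of the villus clumps in every mouse, and their share differed between mice. They were 11.6% of the clumps with A of at least 1% in mouse 1 (exact Clopper-Pearson 95% interval 8.54% to 15.3%), 27.1% in mouse 2 (23.6% to 30.8%) and 23.1% in mouse 3 (20.2% to 26.2%). In mice 4 and 5 they were 5.06% (2.21% to 9.73%) and 15.4% (10.0% to 22.3%). Mice 2 and 3, from which only pairs were sorted, had the highest shares. The mean was 16.5% ± 8.81 (SD, n = 5). Among clumps with over 2000 UMIs it was 11.9% ± 4.93, with 6.85% in mouse 1, 15.5% in mouse 2 and 17.0% in mouse 3, so that mouse 2 no longer had the highest share. Within mouse 1, 13.9% of pairs and 5.83% of larger clumps met the tip rule, and in mouse 5 it was 15.8% and 15.4%. In mouse 4, 0 of 53 pairs did, which allows up to 6.72% by the same interval, against 7.62% of 105 larger clumps. No test was made of these shares, since the rule fixes them.

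**Figure D1:**
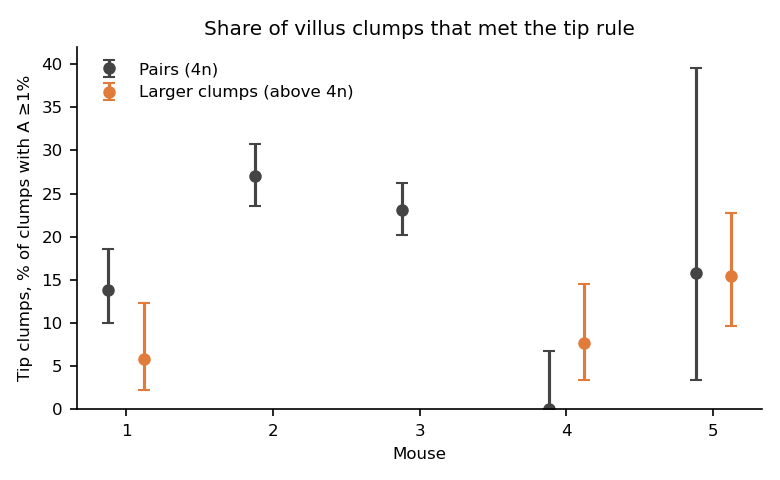
Share of villus clumps that met the tip rule, in percent of the clumps with A of at least 1%, for each mouse (x axis). Points are pairs or larger clumps, and bars are exact 95% intervals that cover counting error only. Mice 2 and 3 sit at 27.1% and 23.1%, and mouse 4 has no tip pair.

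No difference in quality was detected between tip and mid villus clumps. A tip clump held a median of 1561 UMIs on average over the 5 mice and a mid villus clump 1788, with 593 against 718 genes and 9.30% against 10.8% mitochondrial UMIs (adjusted p = 0.556 for each of these 3 values, two-sided exact permutation test over mice, whose smallest possible p is 0.00794). In mouse 5 the mitochondrial share was 17.9% in the tip and 21.7% in mid villus, above the other 4 mice. Markers of 8 other cell classes were summed, and no difference between zones was detected in any sum (adjusted p = 0.944 for each). Goblet markers made up 6900 CPM in the tip and 8797 CPM in mid villus, led by Zg16 and Tff3. None of the 7 goblet, 7 Paneth, 1 enteroendocrine and 1 crypt marker genes that passed the filter was called, by the test described next. With the mouse as a block the crypt marker, Hist1h2ap, was called higher in the tip (log2 fold change 1.21, adjusted p = 0.021). Of the lymphocyte markers the tip clumps held 19 UMIs in all, of 726771, and the mid villus clumps 83, of 4193871. Rac2 led in the tip with 11 and Ccl5 in mid villus with 20. Ptprc, Cd3d and Cd3e were at 0 in the tip and Cd3g in both zones. At least 10 goblet marker UMIs were found in 24 tip clumps (5.73%) and 173 mid villus clumps (12.4%), and at least 10 Paneth marker UMIs in 5 (1.19%) and 78 (5.58%). Without the 44 tip and 297 mid villus clumps rich in markers of another class, 640 of 2405 tested genes were called in place of 738 of 3326.

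Tip and mid villus sums entered edgeR's quasi-likelihood test, with p-values adjusted by Benjamini-Hochberg and called under 0.05. Fold changes are tip minus mid villus on the log2 scale, with their SE. Because clumps were chosen by Ada, the test asks which other genes moved with it. Of 3326 genes tested, 339 were higher in the tip (10.2%) and 399 were lower (12.0%). In 210 genes (6.31%) all 5 tip sums lay above all 5 mid villus sums, and in 202 (6.07%) all lay below. The median log2 fold change over all genes was −0.11, and −0.21 with the size factors of DESeq2. With the mouse as a block, 1261 genes were called, 557 higher and 704 lower. With the mean of the 4 well positions of fewest UMIs subtracted on each plate, 239 were higher and 433 lower (35.6% of calls higher, against 45.9%). Of the wells at these positions, 7 were themselves tip or mid villus clumps, so they are not all empty. The split moved the other way in pairs alone, with 346 higher and 244 lower (58.6%), without mouse 3, with 186 and 132 (58.5%), and in larger clumps alone, with 24 and 10 (70.6%). Without mouse 1, 2 or 3, which hold most of the tip UMIs, 425 of 3345, 332 of 3074 or 318 of 2017 tested genes were called. Without mouse 4 or 5 it was 745 of 3281 or 895 of 4510. None of the 738 genes was called in the opposite direction in any of these fits. The filter on low counts let genes pass through the zone where they were high, so counts over the tested members of a list, below, are descriptions. Genes low in 1 zone, such as Nt5e in mid villus or Reg3a in the tip, passed it through the other zone. Their fold changes and adjusted p-values are descriptions too.

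The label was checked against Nt5e and Clca4a, tip markers that the rule did not use. Nt5e passed the filter through the tip, where it is high, so its values are a description. It stood at 439, 353, 132, 567 and 200.5 CPM in the tip sums of mice 1 to 5 and at 1.37, 1.40, 3.82, 0 and 14.1 CPM in mid villus. All tip values lay far above all mid villus values. The log2 fold change was 6.83 ± 0.63, the highest of the 12 largest rises that the rule for named genes selected. Clca4a, a member of the calcium-activated chloride channel regulator family, held 3919, 4568, 3270.5, 8204 and 3541 CPM in the tip against 95.9, 130.1, 229.7, 72.2 and 345 CPM (log2 fold change 4.56 ± 0.55, adjusted p = 5.84e-05). Its groups did not overlap either. The reads of Clca4a and of the pseudogene Clca4c-ps, which rose by 4.40 ± 0.37 (adjusted p = 3.93e-06), may be shared, since 44.0% of the 40-base words in the last 600 bases of the transcripts of one are found in the other. Clca4b shares no such word with Clca4a. It rose less, from 996 ± 277 to 2161 ± 649 CPM (log2 fold change 1.08 ± 0.28, adjusted p = 0.0132), and was not called without mouse 2 (adjusted p = 0.0646).

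Nt5e and the nucleoside transporter gene Slc28a2 were among the 12 largest rises, but their list gave calls in both directions. Of the 13 genes of nucleotide and nucleoside handling that could be tested, 4 were higher (Nt5e, Slc28a2, Enpp3 and Entpd8) and 1 lower (Entpd5), with a median of 0.02 (10.2% of all genes were higher and 12.0% lower). Nt5e, with 12 UMIs in all mid villus sums and 172 in the tip sums, passed the filter through the tip. With the mouse as a block, 4 were higher and 4 lower. The 4 rises were called with each of the 5 mice left out in turn, and the fall of Entpd5 was lost without mouse 1, 2 or 3.

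Slc28a2, the concentrative transporter that takes up purine nucleosides, held 1675, 1858, 1582, 2457 and 835 CPM in the tip and 5.48, 40.6, 42.5, 7.80 and 49.3 CPM in mid villus. Each tip sum was above every mid villus sum, and the log2 fold change was 5.88 ± 0.60 (adjusted p = 1.47e-05). Its neighbour Gm14085, named Slc28a2b by RefSeq and 23.8 kb downstream on the same strand of chromosome 2 (GRCm38), held 927, 846, 816, 1172 and 601 CPM against 2.74, 11.2, 13.4, 1.95 and 35.2 CPM (log2 fold change 6.42 ± 0.57). Gm14085 passed the filter through the tip, so its values are a description. Both genes rose in 5 of 5 mice. They share 36.2% of the 40-base words near their 3′ ends, so reads of one could be counted for the other and their separate levels are uncertain. Enpp3, an ecto-nucleotide pyrophosphatase, rose from 95.9 ± 68.3 to 848 ± 422 CPM (3.12 ± 0.47, adjusted p = 0.000297). Entpd8, which removes phosphates from extracellular nucleotides, rose from 66.9 ± 25.2 to 234 ± 63.4 CPM (1.83 ± 0.31, adjusted p = 0.000842). Ada, Nt5e, Enpp3 and Entpd8 act on nucleosides and nucleotides, and Slc28a2 carries nucleosides across the membrane.

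The promoters of Slc28a2 and Gm14085 are shown because both genes rose together. Each is the stretch from 250 bases before to 50 bases after the start, on the gene's strand, credited to RefSeq (GRCm38.p6). Slc28a2 lies at chr2:122426185-122426484 and Gm14085 at chr2:122484691-122484990, both on the plus strand. Capitals mark matches on either strand to TTTC, any 2 bases, and TTTC again (GAAA, any 2 bases, GAAA on the other strand), the core of the interferon-stimulated response element, which is taken up with the interferon genes. Slc28a2 has no match and Gm14085 has 1, after its start.
Slc28a2: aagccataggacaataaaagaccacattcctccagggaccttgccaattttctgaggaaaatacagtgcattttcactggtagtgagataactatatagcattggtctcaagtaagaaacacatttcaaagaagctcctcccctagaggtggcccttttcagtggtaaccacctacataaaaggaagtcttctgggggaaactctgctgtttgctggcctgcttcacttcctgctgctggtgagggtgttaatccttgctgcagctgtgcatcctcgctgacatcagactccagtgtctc
Gm14085: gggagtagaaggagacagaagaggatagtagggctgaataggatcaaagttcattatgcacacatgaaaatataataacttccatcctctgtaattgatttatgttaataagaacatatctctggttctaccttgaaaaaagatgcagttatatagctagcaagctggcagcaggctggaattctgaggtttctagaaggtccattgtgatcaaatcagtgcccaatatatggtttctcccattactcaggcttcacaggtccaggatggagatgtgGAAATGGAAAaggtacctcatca

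The other large rises included Gprc5a, Pmepa1, Acsl3, Tubb2a and Cldn4. Gprc5a, a G protein-coupled receptor that retinoic acid induces, held 699, 348, 429, 794 and 267 CPM in the tip and 1.37, 9.79, 7.64, 5.85 and 21.1 CPM in mid villus (log2 fold change 6.06 ± 0.50). Pmepa1, a membrane protein that restrains TGF beta signalling, held 585, 297, 329, 151 and 234 CPM against 8.22, 8.39, 12.9, 19.5 and 7.05 CPM (4.86 ± 0.41). Neither gene had overlapping groups. Acsl3, which activates long-chain fatty acids, rose by 5.43 ± 0.50, Tubb2a, a beta tubulin, by 4.85 ± 0.55 and Cldn4, a claudin of the tight junction, by 5.22 ± 0.68. In these 3 genes no tip value was below 37.8 CPM and no mid villus value above 28.2 CPM. Gprc5a, Pmepa1, Acsl3, Tubb2a and Cldn4 passed the filter through the tip, where they are high, so their values are descriptions. The 3 remaining genes among the 12 have only clone names. Of these, 2010109I03Rik was abundant, with 3078 ± 978 CPM in the tip and 63.5 ± 53.9 in mid villus (5.55 ± 0.65, adjusted p = 4.99e-05). The gene 2010107G12Rik was the most even between mice, with 894, 786, 760.3, 794 and 702 CPM in the tip, and rose by 5.38 ± 0.61. For 3300005D01Rik the mid villus sums held 0 to 4.11 CPM and the log2 fold change was 5.63 ± 0.58. Both 2010107G12Rik and 3300005D01Rik passed the filter through the tip, so their values are descriptions. Of the 12 genes, 10 were called with each mouse left out in turn, and Acsl3 and 3300005D01Rik did not pass the filter without mouse 3.

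**Figure D2:**
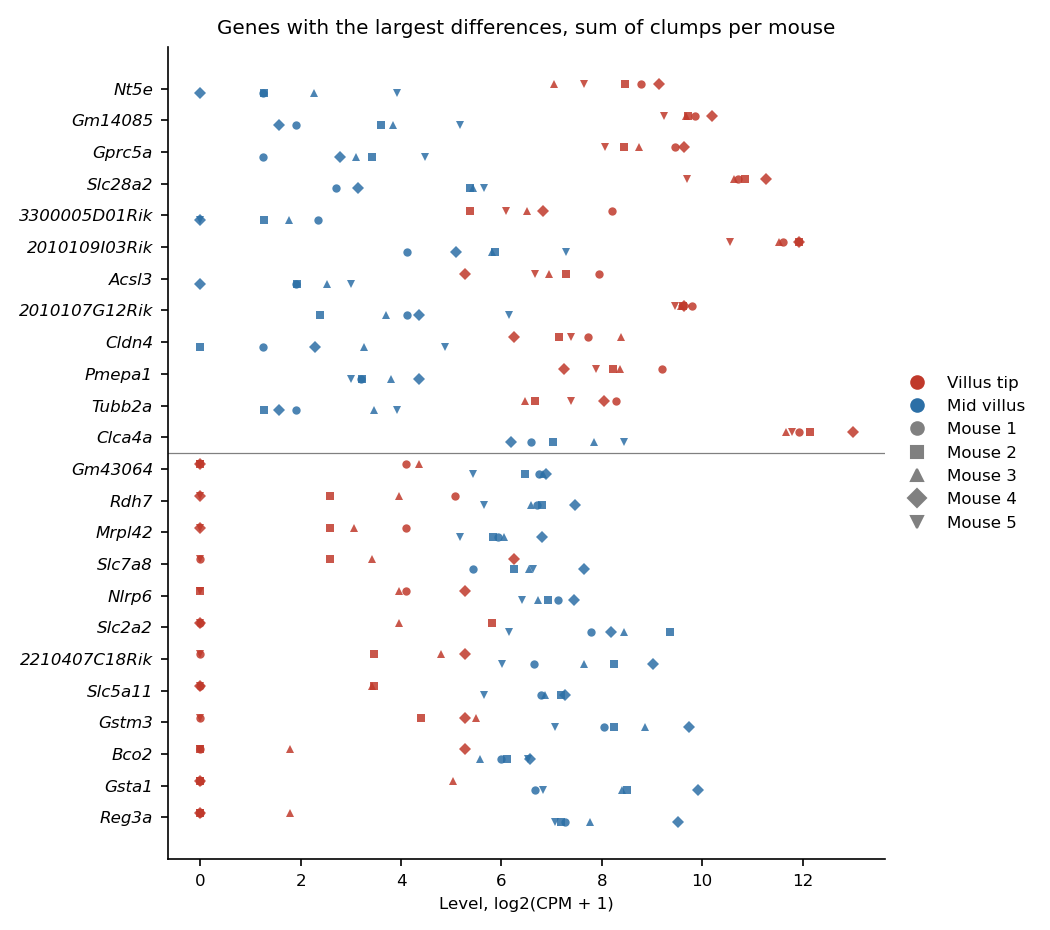
Levels of the 12 genes with the largest rise (above the line) and the 12 with the largest fall (below it), as log2(CPM + 1) of the clump sum of each mouse. Red symbols are tip and blue symbols mid villus sums, with 1 symbol shape per mouse. Every tip symbol lies right of every mid villus symbol above the line. Below it, many tip sums are at 0, and the groups overlap in Slc7a8.

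Of 40 tested genes of the cytoskeleton, keratins and adhesion, 23 were higher and none lower (10.2% and 12.0% of all genes), with a median log2 fold change of 1.26 against −0.11 over all genes, and 20 to 23 of the 23 were called with 1 mouse left out. With the mouse as a block 28 were higher and 1 lower, and with the well positions of fewest UMIs subtracted 21 were higher and 1 lower. Krt20, the keratin of mature enterocytes, held 6927, 7882, 8586, 6049 and 3642 CPM in the tip and 1738, 2254, 2846, 1029.7 and 1022 CPM in mid villus (log2 fold change 1.91 ± 0.36, adjusted p = 0.00175). The lowest tip sum, of mouse 5, was still above the highest mid villus sum. Tmsb4x, which binds actin monomers, rose from 502 ± 191 to 3102 ± 844 CPM (2.56 ± 0.34, adjusted p = 0.000128). Pmp22, a membrane protein of cell contacts, rose from 222 ± 91.8 to 2082 ± 676 CPM (3.16 ± 0.38, adjusted p = 5.84e-05). Lama3, a laminin chain of the basement membrane, rose by 4.09 ± 0.51 (adjusted p = 6.56e-05) and Lgals3, a galectin, by 1.76 ± 0.28 (adjusted p = 0.000477). The actins were not alike in their results: Actg1 was higher by 1.31 ± 0.27 (adjusted p = 0.00282), and Actb had 14344 ± 2186 CPM in the tip and 11184 ± 691 in mid villus with an adjusted p of 0.653 (0.26 ± 0.36).

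Of 20 junction genes tested, 10 were higher and none lower (Cldn4, Dsp, Dsc2, Jup, Cdh1, Dsg2, Marveld3, Cldn7, F11r and Ctnna1), against 10.2% and 12.0% of all genes, with a median of 1.08. With the mouse as a block 16 were higher and 1 lower, and without mouse 1 or without mouse 2 it was 7 of the 10. Cdh1, the E-cadherin of adherens junctions, held 455, 353, 553, 718 and 334 CPM against 136, 155, 238, 207 and 84.6 CPM (log2 fold change 1.51 ± 0.26, adjusted p = 0.000944). Its groups did not overlap. Dsc2, a desmosomal cadherin, was higher by 2.00 ± 0.35 (adjusted p = 0.000965). Dsp, which ties desmosomes to keratins, was higher by 2.30 ± 0.48 (adjusted p = 0.00329), in 4 of 5 mice, with 33.4 CPM in the tip and 35.2 CPM in mid villus of mouse 5, where 33.4 CPM is 1 UMI.

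Of 25 immediate early and stress genes tested, 16 were higher and none lower, against 10.2% and 12.0% of all genes, with a median of 1.24. The block gave 18 higher and DESeq2 17. Between 9 and 15 of the 16 were called with 1 mouse left out, 9 of them without mouse 1 and 9 without mouse 2. Jun, a subunit of the transcription factor AP-1, held 390.3, 559, 273, 454 and 167 CPM in the tip and 79.4, 60.1, 82.1, 87.8 and 77.5 CPM in mid villus (log2 fold change 2.29 ± 0.34, adjusted p = 0.00028). All tip sums were above all mid villus sums, by a smaller margin in mouse 5. Atf3, a stress-induced repressor, was higher by 3.32 ± 0.41 (adjusted p = 6.50e-05), Klf6 by 1.94 ± 0.27 (adjusted p = 0.00017) and Ifrd1 by 4.37 ± 0.53 (adjusted p = 5.84e-05). Fos, the other classical AP-1 subunit, had 409 ± 201 and 236 ± 80.6 CPM (0.94 ± 0.37, adjusted p = 0.0747).

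Few genes of the Egf receptor and of BMP and TGF beta signalling could be tested, and 10.2% of all genes were higher and 12.0% lower. Of the 25 genes of the Egf receptor, Eph and Wnt list, 5 passed the filter and 4 of these were called higher (Egfr, Hbegf, Efna1 and Erbb3). Low genes such as Egfr, with 23 UMIs in all mid villus sums, passed it through the tip, where they are high, so the count says nothing of the list. Egfr, the receptor, held 48.8, 95.7, 80.4, 265 and 33.4 CPM in the tip and 1.37, 1.40, 6.21, 13.7 and 7.05 CPM in mid villus (log2 fold change 4.13 ± 0.55), a description for the same reason. The groups did not overlap, but the values of mice 4 and 5 rest on few UMIs, and Egfr did not pass the filter without mouse 2 or mouse 3. Hbegf, a ligand of this receptor, was at 230.4 ± 108 CPM in the tip and 39.3 ± 4.8 in mid villus (2.69 ± 0.38, adjusted p = 0.00017), and was called with each mouse left out. Of the 4, 2 were called without mouse 2 and 1, Hbegf, without mouse 3. Of 26 BMP and TGF beta response genes in the table, 7 passed the filter and 4 were called higher (Skil, Fhl2, Pdgfa and Smad7), with the same limit. Smad7, an inhibitor of TGF beta receptors, rose from 35.2 ± 12.6 to 88.1 ± 18.7 CPM (1.39 ± 0.37, adjusted p = 0.0141), and its adjusted p was 0.113 without mouse 2. Skil, a repressor of Smad proteins, was higher by 2.02 ± 0.47 (adjusted p = 0.00682) in 4 of 5 mice, with no UMI in the tip sum of mouse 5. Without mouse 3, 2 of the 4 were called.

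Among the genes of fat absorption, 7 of 22 were higher (Acsl3, Cidec, Apobec1, Dgat2, Apoc3, Apoc2 and Plin3) and 1 was lower (Fabp1), with a median of 0.19 (10.2% of all genes were higher and 12.0% lower). Acsl3, with 15 UMIs in all mid villus sums and 100 in the tip sums, passed the filter through the tip. Apoa1, Apoa4 and Apob belong to this pathway but chose the clumps and are not counted. Cidec, which enlarges lipid droplets, held 455, 252, 232, 340.2 and 200.5 CPM in the tip and 34.2, 65.7, 54.9, 31.2 and 42.3 CPM in mid villus (log2 fold change 2.65 ± 0.33, adjusted p = 6.50e-05). Dgat2, which makes triglyceride, was higher by 1.42 ± 0.30 (adjusted p = 0.00376), and Apobec1, which edits the Apob mRNA, by 1.53 ± 0.34 (adjusted p = 0.00508). These 3 genes had no overlap between groups and were called with each mouse left out. Fabp1, a fatty acid binding protein of the cytosol, went the other way, with 1317, 2659, 2179, 1134 and 768 CPM in the tip and 3803, 9276, 6489, 7529 and 2544 CPM in mid villus (−1.80 ± 0.43, adjusted p = 0.00774). It was lower in 5 of 5 mice. Its relative Fabp2 had 18996 ± 8421 and 19696 ± 7159 CPM (−0.05 ± 0.45, adjusted p = 0.959), and Mttp, which loads lipid onto the Apob protein, 896 ± 251 and 1063 ± 334 CPM (−0.21 ± 0.29, adjusted p = 0.647). With the mouse as a block, 10 genes of this list were higher and 4 lower, and without mouse 1, 4 of the 7 were called.

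Interferon response genes went in both directions. Of 30 tested, 5 were higher (Apol9b, Apol9a, Oasl1, Irf9 and Irf7) and 3 lower (Psmb9, Psmb10 and Psme1, subunits of the immunoproteasome and its activator), against 10.2% and 12.0% of all genes, and the block gave 10 and 4. Apol9a held 390.3, 337, 336, 454 and 234 CPM in the tip and 46.6, 36.4, 56.8, 13.7 and 21.1 CPM in mid villus (log2 fold change 3.27 ± 0.34, adjusted p = 1.65e-05). Apol9b held 309, 232, 166, 227 and 100.2 CPM against 13.7, 15.4, 20.5, 13.7 and 21.1 CPM (3.70 ± 0.36), a description, since it passed the filter through the tip. Both genes encode apolipoprotein L family members, with no overlap between groups in either. They share 46.3% of the 40-base words near their 3′ ends, so the split of reads between them is uncertain. Oasl1, an oligoadenylate synthetase-like gene, was higher by 2.16 ± 0.38 (adjusted p = 0.001). Isg15, a ubiquitin-like gene of the same response, had 162 ± 112 and 79.4 ± 47.8 CPM (1.11 ± 0.48, adjusted p = 0.108), and Ifit1bl1 84 ± 62.4 and 132 ± 71.1 CPM (−0.41 ± 0.51, adjusted p = 0.609). The 3 falls were all lost without mouse 2, and only Apol9a, Apol9b and Oasl1 of the 5 rises were called with each mouse left out.

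The promoters of the Apol9 genes are printed because these genes led the interferon list, with capitals and credit as above. Apol9a lies at chr15:77411031-77411330 on the minus strand and Apol9b at chr15:77728822-77729121 on the plus strand. RefSeq gives 2 starts for each gene, and the one listed first is shown.
Apol9a: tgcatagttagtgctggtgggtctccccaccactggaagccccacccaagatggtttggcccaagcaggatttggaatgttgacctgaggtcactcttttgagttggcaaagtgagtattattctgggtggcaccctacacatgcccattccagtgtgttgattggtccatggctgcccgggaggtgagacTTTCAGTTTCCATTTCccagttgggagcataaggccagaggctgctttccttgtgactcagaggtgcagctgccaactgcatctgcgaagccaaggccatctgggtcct
Apol9b: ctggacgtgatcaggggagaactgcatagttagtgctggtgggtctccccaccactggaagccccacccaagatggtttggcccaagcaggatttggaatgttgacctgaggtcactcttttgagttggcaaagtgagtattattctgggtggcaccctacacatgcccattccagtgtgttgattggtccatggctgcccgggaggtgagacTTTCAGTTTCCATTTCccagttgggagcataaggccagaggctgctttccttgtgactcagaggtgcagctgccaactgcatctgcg
The sequences share a run of 278 bases, and both hold 2 overlapping matches to TTTC, any 2 bases, TTTC. In the same window, 3.44% of 32851 RefSeq promoters hold these letters on either strand. By gene it was 4.72% of the 2310 tested genes with a promoter, 5.2% of 250 higher genes, 5.66% of 265 lower genes and 13 of 25 interferon response genes. Among the 5 interferon genes that were higher, Apol9a and Apol9b hold a match, and Oasl1, Irf7 and Irf9 do not. A match is only a match of letters.

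The genes that fell most included antimicrobial, detoxifying and sugar transport genes. Reg3a, a secreted antimicrobial lectin, had 1 UMI in all tip sums, which is 2.44 CPM in mouse 3, and 153, 145, 217, 735 and 134 CPM in mid villus. Summed over mice, its mid villus level was 185 times the tip level (exact 95% interval 33.1 to 7303, counting error only), and edgeR gave an adjusted p of 6.50e-05. Bco2, which cleaves carotenoids, had 2 tip UMIs and 63.0, 68.5, 46.3, 93.6 and 91.6 CPM in mid villus, a ratio of 21.9 (6.01 to 182, adjusted p = 0.000953). The glutathione transferases Gsta1 and Gstm3 had 6.34 ± 14.2 and 20.4 ± 20.5 CPM in the tip against 374 ± 349.7 and 402 ± 276 CPM (log2 fold change −4.60 ± 0.80 and −3.83 ± 0.55, adjusted p = 0.000953 and 0.000216). Only mouse 3 held Gsta1 in the tip, and without it the log2 fold change was −9.90. Nlrp6, a sensor of inflammasomes, was at 13.7 ± 15.5 against 124 ± 33.9 CPM (−3.48 ± 0.52, adjusted p = 0.000293). In each of these 5 genes every tip sum was below every mid villus sum. Slc5a11, a sodium-coupled inositol transporter, was lower by −3.78 ± 0.49 (adjusted p = 9.89e-05), but did not pass the filter without mouse 3. The others among the 12 were 2210407C18Rik, Slc2a2, Slc7a8, Mrpl42, Rdh7 and Gm43064. Of the 12 falls, 7 were called with each mouse left out.

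Of 13 genes of carbohydrate digestion and hexose handling tested, 9 were lower (Slc2a2, Sis, Slc2a5, Slc5a4b, Slc5a1, Khk, Tkfc, Mgam and Lct) and none higher (12.0% and 10.2% of all genes), with a median of −1.54. Sis, the sucrase-isomaltase of the brush border, held 179, 287, 582, 113 and 100.2 CPM in the tip and 2467, 3419, 2829, 1439 and 585 CPM in mid villus (log2 fold change −2.86 ± 0.49, adjusted p = 0.000855). In each mouse the tip was well below mid villus, and the highest tip sum (mouse 3) was just under the lowest mid villus sum (mouse 5). Slc2a2, the glucose transporter GLUT2 of the basolateral membrane, was at 0, 55.4, 14.6, 0 and 0 CPM in the tip and 219, 656, 348, 291 and 70.5 CPM in mid villus (−3.65 ± 0.65, adjusted p = 0.00108). Lct, the lactase, was lower by −1.32 ± 0.30 (adjusted p = 0.00523) and Khk, the ketohexokinase of fructose metabolism, by −1.58 ± 0.28 (adjusted p = 0.00108). Slc5a1, the sodium-glucose transporter SGLT1, had 632 ± 385 and 2199.8 ± 885 CPM (−1.66 ± 0.44, adjusted p = 0.0136), with an adjusted p of 0.063 without mouse 1. Of the 9 falls, 7 to 9 were called with 1 mouse left out, and 6 in all 5 of these fits.

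In peptide and amino acid absorption the calls fell on a part of the list. Of 23 genes tested, 6 were lower and none higher (12.0% and 10.2% of all genes), with a median of −0.82, and the block gave 14 lower. Slc43a2, a transporter of large neutral amino acids, held 65.0, 101, 80.4, 0 and 100.2 CPM in the tip and 501, 461, 423, 501 and 451 CPM in mid villus (log2 fold change −2.59 ± 0.39, adjusted p = 0.000297). Slc16a10, which exports aromatic amino acids, was lower by −2.12 ± 0.42 (adjusted p = 0.00247). Both separated the groups and were called with each mouse left out. Slc7a8, a basolateral exchanger, was lower by −3.29 ± 0.72 (adjusted p = 0.00451), and its adjusted p was 0.0576 without mouse 3. The apical carriers gave no call: Slc15a1, the peptide transporter PEPT1, had 381 ± 223 and 376 ± 114 CPM (−0.13 ± 0.44, adjusted p = 0.877), Slc6a19 388 ± 101 and 385 ± 123 CPM (0.08 ± 0.27, adjusted p = 0.879) and Slc7a9 335 ± 92.4 and 296 ± 52.4 CPM (0.19 ± 0.27, adjusted p = 0.663). Without mouse 1 or without mouse 2, 3 of the 6 were called.

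Among the genes of energy metabolism the share called differed between lists, which was not tested. Their medians were all negative, at −0.81 for mitochondrially encoded transcripts and −0.93 for fat oxidation. Of 72 nuclear-encoded genes of the respiratory chain, 42 were lower and none higher (12.0% and 10.2% of all genes, median −1.05), and 64 were lower with the mouse as a block. Without mouse 1, 2 or 3 the call held for 19, 12 or 19 of the 42. Cyc1, the cytochrome c1 of complex III, held 32.5, 116, 154, 113 and 33.4 CPM in the tip and 412, 558, 397, 534 and 225 CPM in mid villus (log2 fold change −2.02 ± 0.37, adjusted p = 0.00121). The groups did not overlap. Atp5g1, a subunit of the ATP synthase, was lower by −1.95 ± 0.37 (adjusted p = 0.00154). Of the 13 mitochondrially encoded transcripts, 1 was lower, mt-Nd1 (−1.14 ± 0.38, adjusted p = 0.0423), a call lost without any 1 mouse (adjusted p 0.0779 to 0.143), and the block gave 7 lower. Fat oxidation had 6 of 19 genes lower (10 with the block, and 2, 1 or 3 of the 6 without mouse 1, 2 or 3), among them Hadh (−1.02 ± 0.26, adjusted p = 0.012). Of 55 cytosolic ribosomal protein genes, 6 were lower (against 12.0% of all genes) and none higher, with a median of −1.02. The block gave 38 lower and DESeq2 17, whereas 1 of the 6 was called without mouse 1, 0 without mouse 2 or mouse 3 and 2 without mouse 5.

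In epithelial defence, 7 of 22 genes were lower (Reg3a, Nlrp6, Lypd8, Il18, Ccl25, Casp1 and Pigr) and 3 higher (Duoxa2, Duox2 and Muc3), against 12.0% and 10.2% of all genes, with a median of −0.99. The block gave 12 lower and 5 higher. Lypd8, a protein of the mucosal surface that binds flagellated bacteria, held 48.8, 106, 468, 605 and 167 CPM in the tip and 957, 1240.4, 1414, 2457 and 1261 CPM in mid villus (log2 fold change −2.53 ± 0.51, adjusted p = 0.00276). Ccl25, a chemokine of the small intestine, was lower by −2.05 ± 0.34 (adjusted p = 0.000688), while Muc3, a transmembrane mucin, was higher by 1.99 ± 0.35 (adjusted p = 0.000971). The abundant lectin Reg3b was lower in 5 of 5 mice, with 2049, 3359, 8413, 3516 and 11927 CPM in the tip and 11089.6, 15750.3, 20853, 8848 and 14741 CPM in mid villus. Its groups overlapped and it missed the threshold (−1.31 ± 0.52, adjusted p = 0.0815), though not with the block (adjusted p = 2.31e-05). Reg3g had 5444 ± 3835 and 8896 ± 3240.4 CPM (−0.71 ± 0.50, adjusted p = 0.326). Of the 7 falls, 5 to 7 were called with 1 mouse left out.

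Xenobiotic and retinoid genes gave calls in both directions, to be read against 12.0% lower and 10.2% higher of all genes. In xenobiotic metabolism 10 of 33 were lower and 2 higher (17 and 6 with the block), and 4 of the 10 falls were called without mouse 3. The 2 rises, Cyp3a13 and Ces2a, were both lost without mouse 1. Gstp1, a glutathione transferase, was at 124 ± 34.1 CPM in the tip and 519.6 ± 178 in mid villus (−2.01 ± 0.28, adjusted p = 0.00017), with no overlap, and was called with each mouse left out. Of 16 retinoid and vitamin genes, 4 were lower (6 with the block) and 1 higher, Slc46a1, which was lost without mouse 1, 2 or 3. Aldh1a1, which makes retinoic acid, was at 22.2 ± 22.9 CPM in the tip and 204 ± 85.4 in mid villus (−2.75 ± 0.50, adjusted p = 0.00126). Of 8 iron and heme genes Fth1 and Aco1 were called lower, and neither call held without mouse 1, 2 or 3. ER folding genes had 4 of 15 lower (Manf, Canx, Calr and Hspa5) and 7 with the block. Of the 4, Calr, a chaperone of the ER, was called with each mouse left out (−1.36 ± 0.32, adjusted p = 0.00682).

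The remaining lists are given together, several of them with calls near the shares over all genes (10.2% higher and 12.0% lower). Of 24 brush border genes, 1 was higher (Eps8l3) and 3 lower (Pdzk1, Clic5 and Baiap2l2), with a median of 0.19, and the block gave 7 and 5. The call of Baiap2l2 was lost without any 1 mouse (adjusted p 0.0663 to 0.156). Vil1, the villin of microvilli, had 1918 ± 478 and 2335 ± 462 CPM (−0.33 ± 0.30, adjusted p = 0.464). Of 13 class I presentation genes 2 were lower, and both, Canx and Calr, are also ER chaperones. Canx was not called without mouse 2 (adjusted p = 0.0545). The block gave 3 lower and 2 higher, and DESeq2 4 lower and 2 higher. None of 7 class II genes was called, against 1 lower with the block (H2-Eb1) and 1 lower with background subtracted. Of 27 translation factors, 1 was higher and 1 lower (3 lower with the block), both lost without mouse 2 or mouse 3. Among 31 enterocyte transcription factors, 4 were higher (Tfcp2l1, Klf4, Mxd1 and Creb3l3) and 3 lower (Hnf4g, Maf and Esrra), shares near those over all genes, against 8 and 7 with the block. Klf4, a factor of differentiated epithelium, rose from 285 ± 139 to 1151 ± 459.9 CPM (1.99 ± 0.34, adjusted p = 0.000868) and Mxd1, an antagonist of Myc, by 1.44 ± 0.28 (adjusted p = 0.00207). Without mouse 2 or mouse 3, none of the 3 falls was called. In the list of cell death, 5 of 14 were higher (Pmaip1, Casp8, Ripk1, Tnfrsf1a and Bcl2l1) and 3 lower (Casp6, Casp1 and Bad), against 8 and 3 with the block. It mixes genes that promote death with Bcl2l1, which restrains it. Without mouse 1, 2 or 3, 2, 3 or 1 of the 5 rises and 1, 0 or 0 of the 3 falls were called. Casp8 was called with each mouse left out (1.33 ± 0.26, adjusted p = 0.00241). The nuclear RNAs Malat1 and Neat1 were both higher, Malat1 by 2.20 ± 0.48 (adjusted p = 0.00451) and Neat1 by 1.70 ± 0.53 (adjusted p = 0.0302, 0.115 without mouse 2 and 0.104 without mouse 3). Of the enterocyte landmark genes that the study used to place clumps along the villus, 26 of 28 tip genes were higher and 5 of 9 mid villus genes lower, which is not independent evidence since the study applied them to these same clumps.

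**Figure D3:**
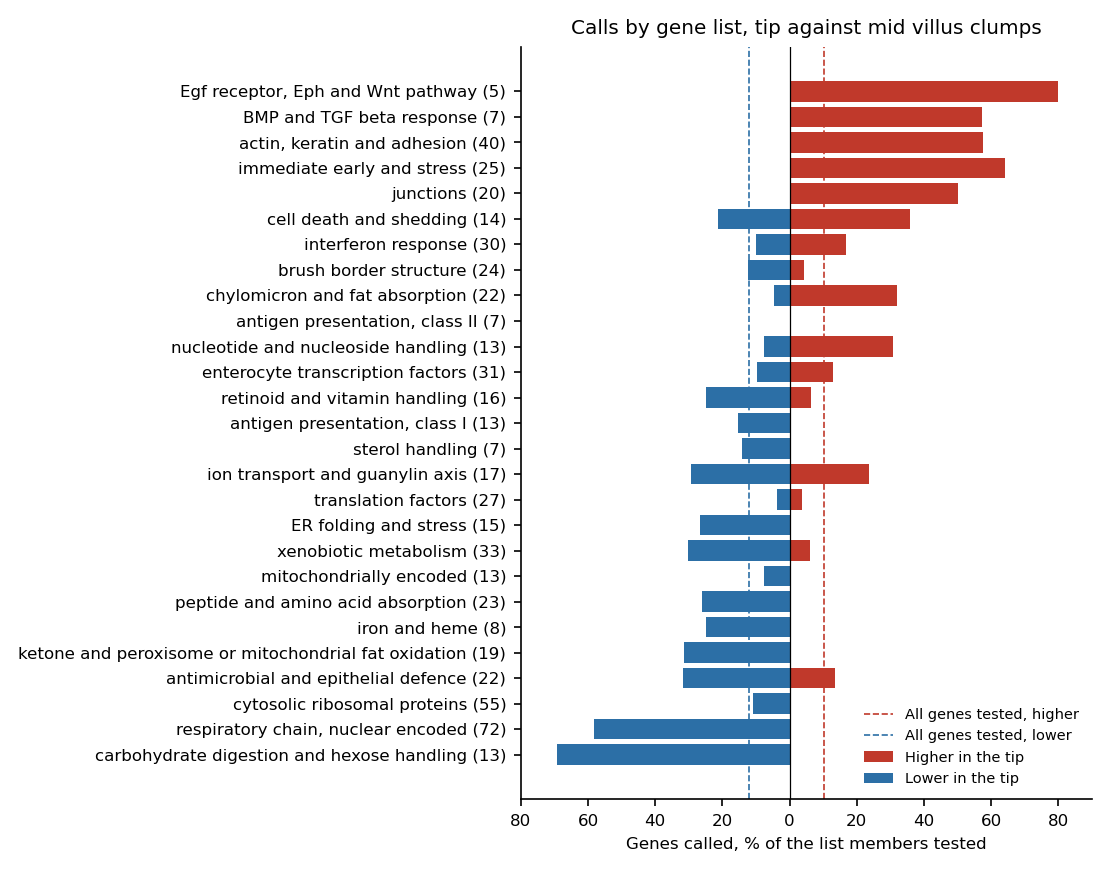
Share of tested list members called higher (red, to the right) and lower (blue, to the left) in the tip, in percent, with the number tested in brackets and the lists ordered by their median log2 fold change. Dashed lines give the shares over all genes tested, 10.2% higher and 12.0% lower. Adhesion, junction and stress genes stand on the right, and carbohydrate and respiratory chain genes on the left.

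Clumps with Ada between the limits lay between tip and mid villus in most of the called genes. These genes were picked for a gap between the zones, so this is a description. On log2(CPM + 1), their mean lay between the other means for 311 of the 339 higher genes and 365 of the 399 lower genes. With mid villus at 0 and tip at 1, the median position was 0.586 for higher and 0.574 for lower genes. When the tip was compared with these clumps in place of mid villus, 572 genes passed the filter and 2 were called, Gprc5a (2.41 ± 0.36, adjusted p = 0.00795) and Gm14085 (2.38 ± 0.43, adjusted p = 0.0271). Pooled over mice, Slc28a2 went from 27.8 CPM in clumps with no Ada UMI to 50.2, 373, 904 and 2064 CPM over the rising bins of Ada, and Sis from 2643 to 2515, 1097, 554 and 366 CPM. Nt5e was at 2.89 and 2.71 CPM in the pooled bins below 0.05% Ada and at 24.3, 120.5 and 297 CPM above it. From 0.05% to 0.2% Ada the mice differed, with 44.7, 68.9, 5.96, 0 and 113 CPM of Nt5e in mice 1 to 5, from 0 to 7 UMIs each.

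**Figure D4:**
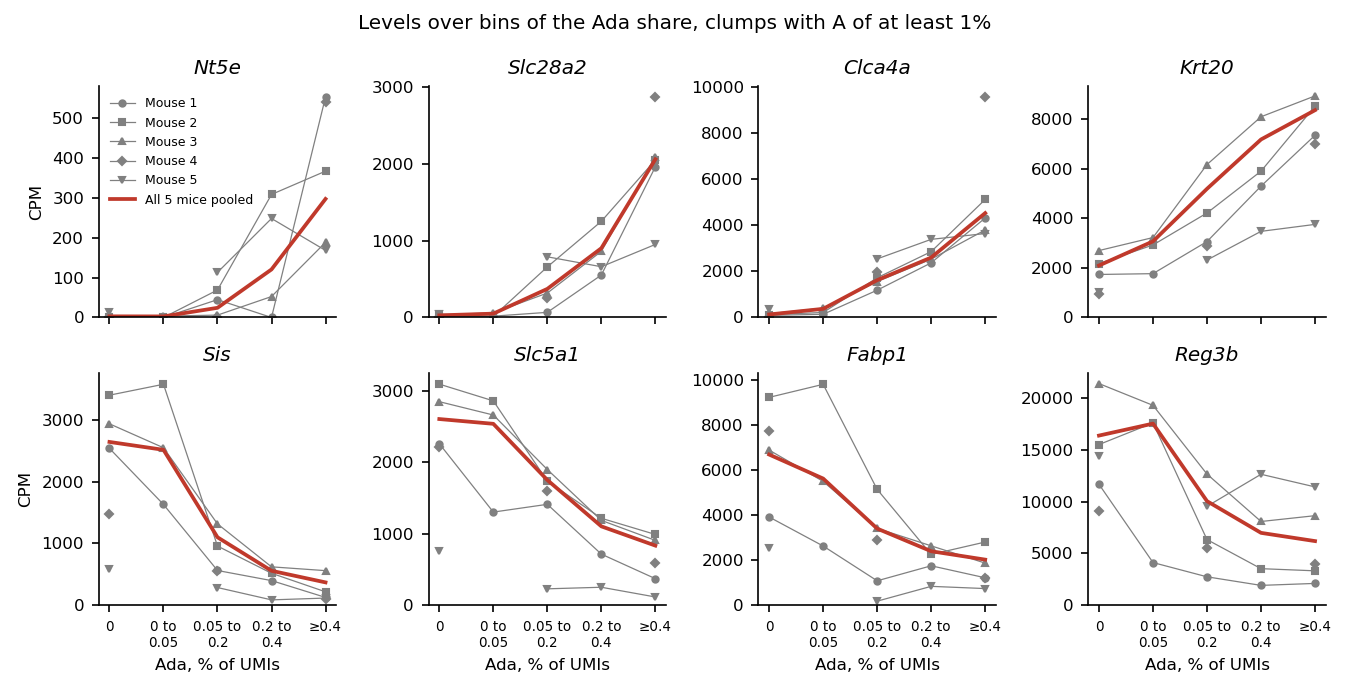
Levels of 8 genes in CPM over 5 bins of the Ada share, in percent of UMIs, for clumps with A of at least 1%. Grey symbols are mice with at least 5 clumps in the bin, and the red line pools all 5 mice. Slc28a2 climbs to 2064 CPM and Sis falls to 366 CPM in the last bin.

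Dissociated single cells of the same tissue, chosen by the same limits, gave a second set of samples. They came from mice numbered 1 to 4, and the labels do not say whether these are the animals of the clumps with the same numbers. The cells were sorted on Epcam, CD45 and CD24 gates and held 178 tip and 438 mid villus cells of 4045 that passed. Of 3108 genes tested, 531 were higher in the tip (17.1%) and 584 lower (18.8%). Of the 2816 genes tested in both, 312 were higher in clumps and 479 in cells, and the 280 shared were 89.7% of the first and 58.5% of the second. For lower genes, 337 and 550 were called and 278 shared, 82.5% and 50.5%. No gene was called in opposite directions. Without mouse 2 the cells gave 715 calls in place of 1115. The labels give an age of 4 months on 3 plates of this mouse and of 3 months on its remaining plates, so that its sums may not come from a single animal. Slc28a2 was at 1411 ± 532 CPM in tip cells and 20.3 ± 5.92 in mid villus cells (n = 4 mice, log2 fold change 6.16 ± 0.36, adjusted p = 3.71e-08). Sis was at 138 ± 45.7 and 2173 ± 994 CPM (−3.81 ± 0.33, adjusted p = 1.53e-06). Reg3b, which missed the threshold in clumps, was lower in cells, with 1714 ± 821 and 5811 ± 2694 CPM (−1.59 ± 0.36, adjusted p = 0.00325).

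**Figure D5:**
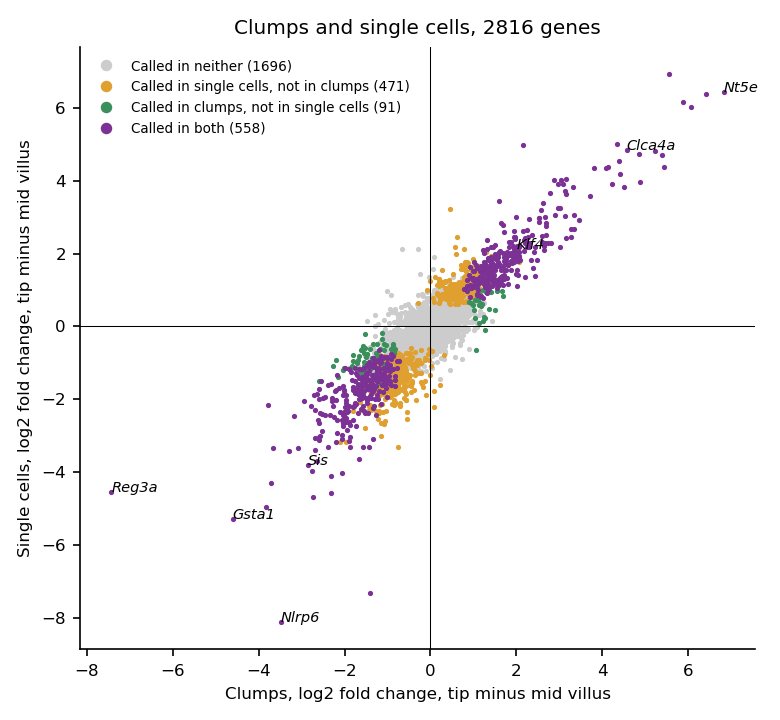
Log2 fold change, tip minus mid villus, of 2816 genes in clumps (x axis) and single cells (y axis), coloured by where they were called. The 558 genes called in both lie in the lower left and upper right, 471 were called in cells alone and 91 in clumps alone.

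The change from mid villus to tip was also compared between pairs and larger clumps. Only mouse 1 had a tip sum of pairs among the mice with larger clumps, so this test has little power. Of 1670 genes, edgeR called none for the interaction of zone and gate (0%), and 22 had an unadjusted p under 0.05 (36 with the mouse as a block). No other tool was run. Within pairs alone 590 of 3759 tested genes were called and within larger clumps 34 of 941, from 34 tip clumps. Mouse 6, sorted above 2n and left out of the fits above, gave 26 tip and 65 mid villus clumps. In it, 296 of 338 higher genes and 378 of 398 lower genes had the same direction, with Slc28a2 at 1629 CPM in the tip and 50.4 in mid villus, and Nt5e at 302 and 0 CPM. The share over all tested genes was not worked out. In its tip sum 1 UMI is 16.8 CPM, and a low gene with no UMI there counts as lower.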

How the data were processed

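The authors deposited whole-number UMI counts per gene and well, 1 table for clumps and 1 for single cells. Wells were sequenced by MARS-seq, demultiplexed with bcl2fastq 2.15.0.4 per the submitters' processing notes, and aligned to GRCm38 with STAR in zUMIs. Well barcodes recur on every plate by design, and the plate tells wells apart. No 2 wells held identical counts. Which wells were left empty is not marked in the tables, so background was subtracted only in an alternative. It was taken from the 4 well positions of fewest UMIs, 7 of whose wells were tip or mid villus clumps.

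Clumps were assigned to zones by the limits given above and summed per mouse (at least 5 clumps per sum), since the mouse is the replicate. P-values measure the spread between mice. Sums were tested with edgeR 4.0.16 (TMM, filterByExpr, quasi-likelihood test, Benjamini-Hochberg adjustment, threshold 0.05), with DESeq2 1.42.0 as an alternative. The steps were tested on simulated data. The limits, members and gene lists were chosen with earlier results of these data known.

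By the labels, clump sums with the same number come from 1 mouse. For the single cells this is not assured in mouse 2, whose plates carry both 3 and 4 months as age. After group means were removed, the tip and mid villus sums of a mouse correlated at 0.407, 0.687, 0.731, 0.561 and 0.647 over 404 genes, in each mouse above any other pairing. The main fit has no term for the mouse and the block is an alternative.

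Named genes were the 12 largest rises and falls among called genes that moved alike in every mouse and reached 50 CPM, up to 4 members of each list with the lowest p, and a set of known enterocyte genes. Other called members of short lists are named without values. The study's own comparisons were not used.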

Additional observations from a re-analysis of the deposited data

Results flagged for a closer look

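In 71 groups of 5 sums, 1 mouse stood far from the other 4 in 16 groups. How many groups chance would flag was not worked out, and some flags rest on 1 UMI. Mouse 5 was apart in mid villus clumps, with 21.7% mitochondrial UMIs (median of the others 8.22%), Nt5e at 14.1 CPM (1.38) and 2010107G12Rik at 70.5 CPM (14.2). Its mid villus sum was the shallowest of the 5. Mouse 4, with 8 tip clumps, was apart in the tip for Clca4a at 8204 CPM (median of the others 3730.2), Bco2 at 37.8 CPM (0), Slc7a8 at 75.6 CPM (2.52) and the crypt and dividing markers at 756 CPM (116). In its mid villus sum it was apart for Reg3a at 735 CPM (149), the Paneth markers at 3485 CPM (396) and the crypt and dividing markers at 399.8 CPM (137). A value of 37.8 CPM is 1 UMI in the tip sum of mouse 4.

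The remaining values belong to the deeper sums. In mouse 3, the tip held Reg3a at 2.44 CPM, which is 1 UMI, and Gsta1 at 31.7 CPM where the other 4 had none, and tuft markers at 246 CPM (median of the others 8.13). In mouse 1, 3300005D01Rik was at 293 CPM in the tip (78.5) and tuft markers at 175 CPM in mid villus (33.0). In mouse 2, Slc2a2 was at 55.4 CPM in the tip, with a median of 0 in the others. The part of these mice in the calls is given by the fits that leave out each mouse.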

How the results depend on the processing

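The 738 calls became 1261 with the mouse as a block, 318 to 895 with each mouse left out, 34 in larger clumps only, 2 against clumps between the limits, 349 with A of at least 2% and 140 with each clump thinned to 500 UMIs, where 817 genes passed the filter. It passed 2017 to 4510 genes with a mouse left out, 941 in larger clumps and 2229 with A of at least 2%. The other settings gave 590 to 1042 calls, with 713 when mouse 6 was added (a choice made after seeing the data). In single cells 1115 calls became 715 to 1160 with each mouse left out and 1543 without the filter. Over named genes and settings, 3074 results kept their side of the threshold, 307 lost the call, 60 gained it and 0 turned direction. With the block the gate interaction kept 0 calls. For the quality values and marker sums the block is a sign flip within mice whose smallest possible p is 0.0625, so it could give no call. The interaction without mouse 1 could not be run, as no tip sum of pairs was left. Depth in the tip sums of mice 4 and 5 limits genes under about 113 CPM.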

Other observations

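Ion transport genes gave calls in both directions. Of 17 tested, 4 were higher (Clca4a, Clca4c-ps, Slc9a2 and Clca4b) and 5 lower, Aqp11 and Ano6 among them (10.2% and 12.0% of all genes), with a median log2 fold change of −0.44. Clca4a and Clca4c-ps may share reads. Ano6, a calcium-activated scramblase, held 146, 85.6, 146, 75.6 and 134 CPM in the tip and 456, 406, 393, 415 and 261 CPM in mid villus (−1.69 ± 0.27, adjusted p = 0.000504 by edgeR). Its groups did not overlap and it was called with each mouse left out. Aqp11, a water channel, had 7.44 ± 10.2 and 95.5 ± 32.2 CPM (−2.68 ± 0.49, adjusted p = 0.00123), and did not pass the filter without mouse 3. The guanylin genes gave no call, with Guca2a at 313 ± 176 and 432 ± 162 CPM (adjusted p = 0.428) and Guca2b at 1463 ± 534 and 2046 ± 749 CPM (adjusted p = 0.392).

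Among 7 sterol genes tested, a share near that over all genes was called (12.0% lower): 1 was lower, Stard4, a cholesterol carrier, with 27.5 ± 25.4 CPM in the tip and 103 ± 34.8 in mid villus (−2.06 ± 0.44, adjusted p = 0.00393). Npc1l1, which takes up cholesterol, had 1020.2 ± 201 and 715 ± 75.9 CPM (0.45 ± 0.27, adjusted p = 0.241). In the list of butyrophilin-like genes and lymphocyte ligands, Cdh1 was higher and Ccl25 lower of 4 tested. Btnl1 had 87.6 ± 47.1 and 120.1 ± 41.7 CPM (adjusted p = 0.652). Of 25 crypt landmark genes of the study, 4 were lower and none higher (12.0% and 10.2% of all genes), 19 were lower with the block, where 704 of 3326 genes were, and none of the 4 was called without mouse 1, 2 or 3.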
